A study of Homo sapiens with 10 samples.

Results

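A set of 33 genes of the antioxidant defence was followed in LS180, an established human colorectal cancer cell line. It holds the transcription factor NRF2 (gene NFE2L2), its inhibitor KEAP1, genes that NRF2 is known to switch on, and the enzymes of the glutathione and thioredoxin systems. Members were taken from a list by gene symbol, and superoxide dismutases were left out. All 33 were found among the 58870 genes of the deposited table, and all 33 passed the filter on low counts in every comparison. The mRNA was sequenced in bulk from 5 stable lines that carry CRISPR interference, in which a catalytically inactive Cas9 is led by a guide RNA to a promoter and represses transcription. The lines were sg1, sg2 and sg3, with guides against RNASE1, the gene of a secreted ribonuclease, and NTC2 and NTC1, with non-targeting guides. Each line had a library lettered B and a library lettered A, which gave 10 libraries. No line received a drug, and all were grown in the same serum-containing medium, per the labels. The labels say neither what the letters stand for nor whether a line is a single clone, and nothing says that A and B came from separate cultures. The p-values therefore reflect only how far these libraries differ, and part of that may be technical.

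Library totals lay between 39026605 and 45050991 counts. RNASE1 itself checked the labels: it stood at 1.02 to 3.75 CPM (counts scaled to a common library total) in the 6 guide libraries, against 16.4 to 23.7 CPM in the 4 NTC libraries. Its log2 fold change was -3.26 (SE 0.23, edgeR adjusted p = 8.37e-05) in guide lines over NTC lines. All 10 markers of intestinal epithelium averaged at least 1 CPM, whereas 3 of 14 markers of fibroblasts, endothelium and leukocytes (LYZ, CD68 and COL3A1) did so and another 3 were at 0. The libraries are bulk samples, so fewer cells of a type and less RNA per cell cannot be told apart.

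In resting cells KEAP1 holds NRF2 for ubiquitination and rapid destruction. Oxidants and electrophiles modify KEAP1, NRF2 then accumulates, pairs with a small MAF protein and binds antioxidant response elements in the DNA of its target genes. Among these are the glutamate-cysteine ligase subunits that start glutathione synthesis, the thioredoxin system, enzymes that supply NADPH, and reductases of quinones and carbonyls. Intestinal epithelium meets electrophiles from food and bacteria, and GPX2 is known as the peroxidase of that tissue.

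The promoters of AKR1C1 and AKR1C2 are shown because these reductases varied most among the members and are the hardest pair to tell apart. Both genes lie in a cluster on chromosome 10, AKR1C1 at 4963253 to 4983283 on the plus strand and AKR1C2 at 4987400 to 5018031 on the minus strand in GENCODE 29 (GRCh38), with AKR1C3 at 5035354 to 5107686 on the plus strand. The promoter windows run from 250 bases before to 50 bases after the RefSeq start (GRCh38.p14), at chr10:4963165-4963464 on the plus strand for AKR1C1 and at chr10:5003808-5004107 on the minus strand for AKR1C2. Capitals mark the bases that differ between them or lie in a gap of the alignment.
AKR1C1: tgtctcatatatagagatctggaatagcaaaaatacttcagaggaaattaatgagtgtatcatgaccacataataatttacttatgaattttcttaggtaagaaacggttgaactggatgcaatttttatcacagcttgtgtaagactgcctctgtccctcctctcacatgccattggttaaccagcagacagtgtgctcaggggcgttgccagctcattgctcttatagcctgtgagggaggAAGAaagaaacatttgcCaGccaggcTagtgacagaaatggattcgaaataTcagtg
AKR1C2: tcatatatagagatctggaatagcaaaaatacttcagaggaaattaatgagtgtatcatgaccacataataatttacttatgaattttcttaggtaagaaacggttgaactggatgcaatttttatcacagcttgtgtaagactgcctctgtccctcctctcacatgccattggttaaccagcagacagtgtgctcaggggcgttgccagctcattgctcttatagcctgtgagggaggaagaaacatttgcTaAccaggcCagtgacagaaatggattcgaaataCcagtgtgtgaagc
Of 296 aligned columns, 288 were identical, or 97.3%. The windows of AKR1C1 and AKR1C3 were identical in 75.7% of 300 columns. The transcripts resemble each other as well: 50.8% of all stretches of 50 bases in the longest coding transcript of AKR1C2 also occurred in transcripts of AKR1C1. RSEM divides reads that fit several genes, so the split between AKR1C1 and AKR1C2 is uncertain, and the sum over AKR1C1, AKR1C2 and AKR1C3 is given beside them.

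The core of the antioxidant response element, TGACNNNGC, was searched on both strands of the RefSeq promoter windows. Entries were found for 25 of the 33 members, and 6 of the 25 held the core (24.0%): GCLM, GPX2, KEAP1, ME1, PGD and TXNRD1. Among all 27305 genes with a window the share was 16.1%. The windows of AKR1C1, AKR1C2 and AKR1C3 held no match. The stricter TGACTCAGC, which is a special case of the core, occurred in ME1 alone among the members and in 0.689% of all genes. The following stretches of 69 bases carry the core in capitals in an enzyme of NADPH supply (ME1), a glutathione peroxidase of the gut epithelium (GPX2) and the regulatory subunit of glutamate-cysteine ligase (GCLM), at chr6:83431150-83431218, chr14:64942829-64942897 and chr1:93909426-93909494, each on the minus strand.
ME1: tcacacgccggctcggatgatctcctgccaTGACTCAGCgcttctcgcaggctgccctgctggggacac
GPX2: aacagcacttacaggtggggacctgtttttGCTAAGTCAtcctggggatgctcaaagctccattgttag
GCLM: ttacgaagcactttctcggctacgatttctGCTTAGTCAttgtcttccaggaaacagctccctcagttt
In GPX2 and GCLM the core lies on the opposite strand and so reads as its reverse complement. A match is a description of the letters and does not show that NRF2 binds there. Sequence outside these windows was not searched, so a window without a match does not show that the gene lacks the element.

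In LS180 the iron-storage and thioredoxin genes were the most abundant members. Levels between genes are given per transcript length, as TPM, the share of transcripts after division by length, computed from the counts and the longest coding transcript in GENCODE 29. FTH1, the ferritin heavy chain, averaged 13017 ± 539 TPM (SD over the 10 libraries) and ranked 1 among all genes, and FTL, the ferritin light chain, averaged 5907 ± 277 TPM and ranked 8. Next came PRDX1 at 1692 ± 44.1 TPM, TXN (thioredoxin) at 1581 ± 60.3 TPM and PRDX2 at 1125 ± 17.3 TPM, where peroxiredoxins are peroxidases that thioredoxin reduces. Pseudogenes share 40.4% of the 50-base stretches of FTH1 and 18.3% of those of FTL, so both levels depend on how RSEM placed shared reads. The lowest levels were those of GCLM at 28.7 ± 1.58 TPM, the exporter ABCC1 at 27.9 ± 1.47 TPM, the heme-degrading HMOX1 at 17.5 ± 1.63 TPM and the growth inhibitor OSGIN1 at 6.04 ± 1.03 TPM. The regulators themselves lay between these ends, KEAP1 at 150 ± 2.63 TPM and NFE2L2 at 146 ± 6.13 TPM, with ranges that overlapped.

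Among the peroxidases, GPX4, which reduces lipid peroxides in membranes, averaged 791 ± 23.5 TPM, GPX2 702 ± 48.1 TPM and the ubiquitous GPX1 507 ± 25.4 TPM. PRDX5 averaged 506 ± 9.64 TPM, the mitochondrial PRDX3 459 ± 18.3 TPM, PRDX6 358 ± 5.62 TPM, PRDX4 of the endoplasmic reticulum 260 ± 11.7 TPM and catalase (CAT) 118 ± 4.56 TPM. The enzymes of the pentose phosphate pathway were close together, TALDO1 at 671 ± 19.0 TPM, TKT at 614 ± 17.8 TPM and PGD at 530 ± 13.0 TPM, and malic enzyme (ME1) lay lower at 90.3 ± 3.01 TPM. In glutathione metabolism GSR, which reduces oxidized glutathione, averaged 196 ± 9.68 TPM, GSS 82.4 ± 1.76 TPM and the catalytic ligase subunit GCLC 74.3 ± 4.97 TPM. Thioredoxin reductase (TXNRD1) averaged 211 ± 12.9 TPM and sulfiredoxin (SRXN1), which repairs overoxidized peroxiredoxins, 115 ± 2.72 TPM; 84.7% of its 50-base stretches also occur in AL121758.1, which stood at 0 to 0.926 CPM. Of the reductases, NQO1 averaged 348 ± 29.6 TPM, AKR1C3 201 ± 25.5 TPM, AKR1C2 97.8 ± 27.9 TPM, AKR1B10 69.1 ± 10.3 TPM and AKR1C1 65.8 ± 15.6 TPM. The AKR1C levels depend on the transcript chosen, with 6705 bases for AKR1C1, 3756 for AKR1C2 and 1807 for AKR1C3. Before division by length AKR1C1 was the highest of them. AKR1C1, AKR1C2 and AKR1C3 averaged 183, 153 and 153 CPM in guide lines and 196, 162 and 159 CPM in NTC lines. In this order of 33 levels, 14 of 32 neighbouring pairs had ranges over the libraries that did not overlap and 18 overlapped. Together the members took 1.60% to 1.82% of each library.

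The largest differences within the set were between B libraries, in the aldo-keto reductases, which reduce carbonyls and steroids with NADPH. AKR1C2 stood at 265, 98.0, 139, 193 and 148 CPM in the B libraries of sg1, sg2, sg3, NTC2 and NTC1, against 129, 142, 146, 146 and 162 CPM in their A libraries. The B library of sg1 was the highest of all 10 and that of sg2 the lowest. The highest B library was 2.70-fold above the lowest, against 1.25-fold among A libraries, and this B span ranked 3 among the 9527 genes that averaged at least 10 CPM. AKR1C1 had 294, 124, 167, 222 and 175 CPM in the B libraries in the same order of lines, against 160, 176, 178, 187 and 201 CPM in the A libraries. Its spans were 2.37-fold in B, ranking 7, and 1.25-fold in A. The 3 AKR1C genes summed to 762, 346, 444, 579 and 470 CPM in B libraries, against 437, 473, 475, 492 and 526 CPM in A libraries, so the pattern did not depend on how reads were split among them.

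AKR1C3, on the same cluster, had 203, 124, 138, 164 and 147 CPM in the B libraries of sg1, sg2, sg3, NTC2 and NTC1, against 148, 155, 151, 160 and 164 CPM in the A libraries, a span of 1.63-fold in B and 1.11-fold in A. AKR1B10, a retinal and aldehyde reductase on chromosome 7 at 134527592 to 134541408 (plus strand), had 64.4, 36.8, 42.1, 47.6 and 41.6 CPM in B libraries, against 44.4, 47.1, 50.9, 46.2 and 48.5 CPM in A libraries. Its span was 1.75-fold in B and 1.15-fold in A. The B library of sg1 was again the highest and that of sg2 the lowest for both genes. NQO1, the quinone reductase, spanned 485 CPM in sg1 B to 363 CPM in sg2 B (1.34-fold), against 1.11-fold in A libraries. GPX2 spanned 376 CPM in sg1 B to 287 CPM in sg2 B (1.31-fold), against 1.11-fold in A.

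**Figure D1:**
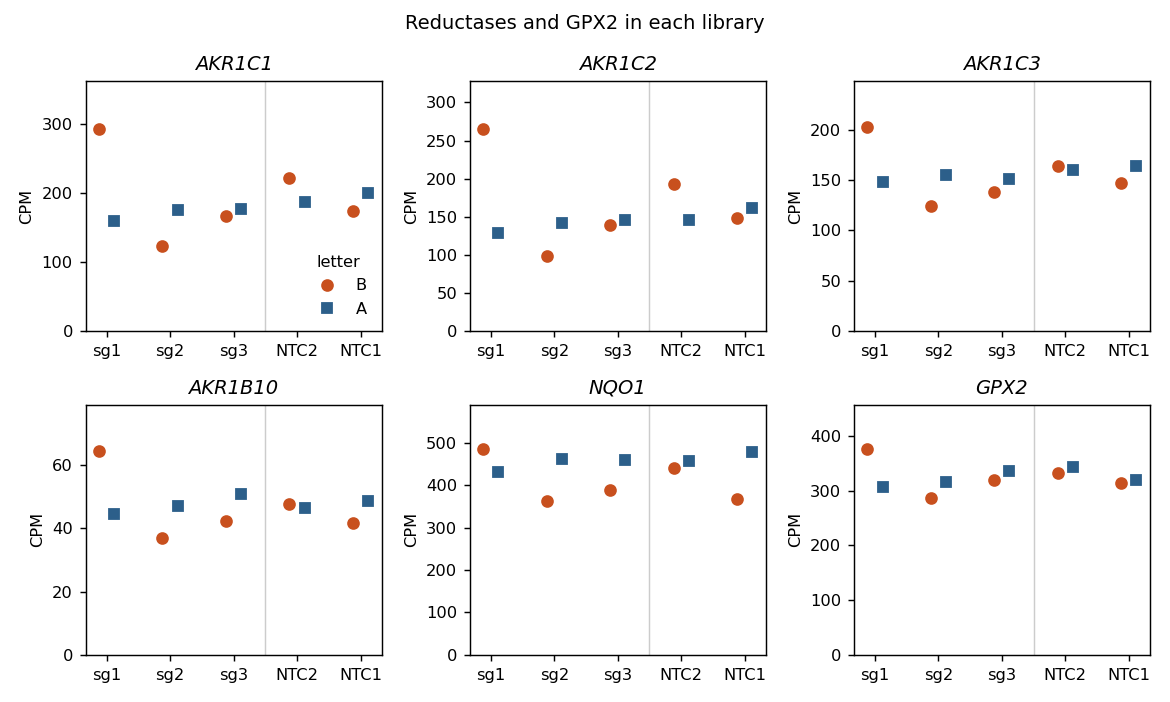
CPM (vertical axis, from 0) of 5 reductases and GPX2 in each line (horizontal axis), with the B library as a circle left of the A library as a square. In every panel the highest circle belongs to sg1 and the lowest to sg2, for AKR1C2 at 265 and 98.0 CPM.

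Other genes measured the same way give the background for these spans. A B span of at least 1.5-fold was found in 4 of the 32 members that averaged at least 10 CPM (AKR1C1, AKR1C2, AKR1C3 and AKR1B10; 12.5%), against 0.556% of the 9527 genes. An A span of that size was found in 0 of 32 members and in 0.294% of genes. The B library of sg1 was the highest of the 5 for 20 of 32 members (62.5%), against 24.6% of genes, and the B library of sg2 the lowest for 13 (40.6%), against 18.6%. Both held for 9 members (28.1%), against 6.46% of genes: AKR1B10, AKR1C1, AKR1C2, AKR1C3, GPX2, KEAP1, NQO1, PRDX1 and TXN. This order of libraries was first read from the reductases and GPX2, which are counted here again, so these shares are a description and not a test. The members were also measured in the same libraries, and the AKR1C genes share reads, so they do not count as independent cases. Each library was also set against the average of the other libraries of its letter. Among B libraries, 25 of 32 members lay above that average in sg1, with a median log2 difference of 0.08, and 9, 10, 23 and 4 did so in sg2, sg3, NTC2 and NTC1, with medians of -0.06, -0.02, 0.04 and -0.06. Among A libraries the counts were 6, 11, 15, 23 and 21 of 32 in the same order of lines, with medians between -0.05 and 0.05. Over all genes at 10 CPM or more, 43.3% to 55.6% lay above it in any library (48.3% in sg1 B), so a shift of the members against their letter was seen in several libraries besides sg1 B. Other pathway genes at 10 CPM or more made up 56 entries, with GGT1 entering more than once. Of these 56, 9 had sg1 B highest and sg2 B lowest among the B libraries (16.1%). They were AKR1B1, ALDH3A1, CHAC1, EPHX1, GGT1, GLRX3, MAFG, SLC7A11 and TRIM16L. GGT1 is listed for an entry with fewer counts. In its entry with the most counts sg1 B was the lowest B library at 45.5 CPM, with 50.9 CPM in sg2 B. The aldehyde dehydrogenase ALDH3A1, with 57.7 CPM in sg1 B and 33.9 CPM in sg2 B, was the only 1 of the 56 with a B span of at least 1.5-fold.

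Each line had 1 library per letter, so a line's own difference between letters has no replicate and could not be tested. The AKR1C2 values rest on 10354 estimated counts in sg1 B and 4183 in sg2 B. The log2 ratio of B to A for AKR1C2 was 1.04 in sg1, -0.54 in sg2, -0.06 in sg3, 0.41 in NTC2 and -0.13 in NTC1, so the signs were mixed within both kinds of line. The 28 members at 10 CPM or more with a B span under 1.5-fold spanned 1.02-fold (ABCC1) to 1.34-fold (NQO1), with a median of 1.10-fold, against a median of 1.11-fold over all genes. The 10 epithelial markers, with KRT8 and KRT18 as the most abundant, summed to 7267 CPM in sg1 B and 6313 to 6791 CPM in the other B libraries, against 7690 to 7880 CPM in the A libraries. Not every marker followed the sum: CDH1 had 277 CPM in sg1 B and 286 to 314 CPM in the other B libraries, against 289 to 302 CPM in the A libraries. The part of the markers in the result was not tested.

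**Figure D2:**
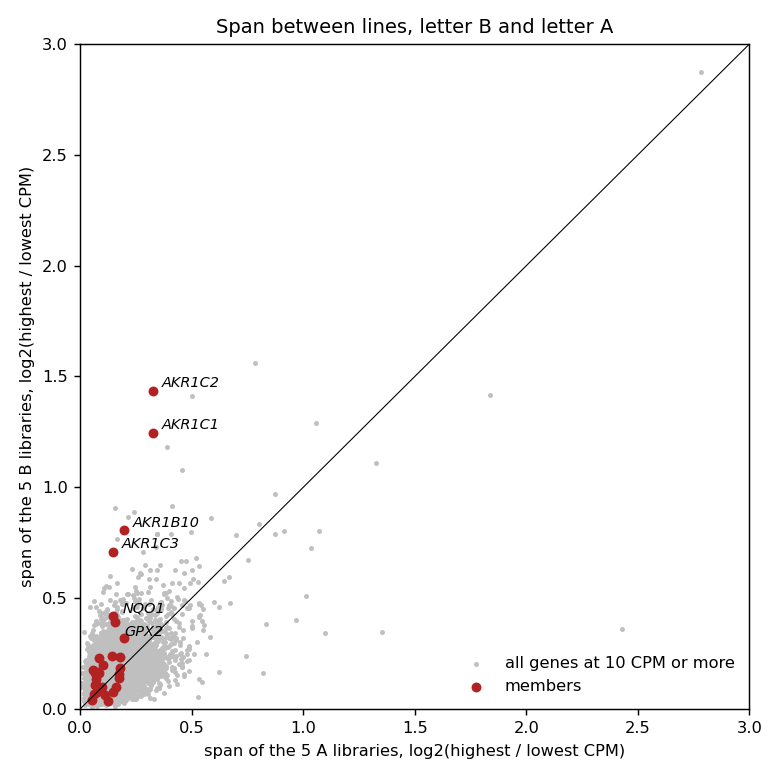
Span between the 5 lines, as log2 of the highest over the lowest CPM, in B libraries (vertical axis) and A libraries (horizontal axis) for the 9527 genes that averaged at least 10 CPM (grey) and the 32 members among them (red). AKR1C2, AKR1C1, AKR1B10 and AKR1C3 lie far above the diagonal of equal spans, and most members lie near the lower left corner.

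Letter B was compared with letter A within lines, in a fit with a term for each line. By edgeR's quasi-likelihood test with an adjusted p under 0.05, 9 of 33 members changed, 2 higher and 7 lower in B. Of all 16411 genes tested 29.6% were called, 14.6% higher and 15.0% lower, against 27.3% of the members. All genes tested include many of low counts. Among genes that averaged at least 10 CPM the members' share was below the background, with 8 of 32 members (25%) and 43.6% of all genes called. There 1 member and 20.5% of genes were higher, and 7 members and 23.1% of genes lower. The median log2 fold change was -0.03 over the members and 0.00 over all genes tested.

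HMOX1, which breaks down heme, fell furthest. It had 13.9, 11.6, 13.8, 12.5 and 11.1 CPM in the B libraries of sg1, sg2, sg3, NTC2 and NTC1, against 14.8, 14.0, 15.9, 15.1 and 13.8 CPM in the A libraries. B was lower in 5 of 5 lines, although the ranges of the letters overlapped, and the log2 fold change was -0.23 (SE 0.05, adjusted p = 0.00348). The other iron gene that fell was FTL, at -0.14 (SE 0.03, adjusted p = 0.00883), with 2235, 1978, 2162, 2206 and 1967 CPM in B, against 2188, 2262, 2297, 2472 and 2382 CPM in A. In sg1 FTL was higher in B than in A, and in the other 4 lines it was lower. FTH1 had 7314, 6284, 6537, 6987 and 6195 CPM in B, against 6562, 6933, 7099, 7243 and 7135 CPM in A, a log2 fold change of -0.07 (SE 0.04, adjusted p = 0.185) that did not pass.

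GPX1, which reduces hydrogen peroxide with glutathione, had 250, 229, 241, 227 and 229 CPM in B libraries, against 255, 255, 258, 288 and 261 CPM in A libraries. Every B value lay below every A value. Its log2 fold change was -0.16 (SE 0.04, adjusted p = 0.00451), and 21.5% of its 50-base stretches occur in other transcripts, mostly a pseudogene. GPX2 and GPX4 did not pass, at 0.01 (SE 0.05) and -0.02 (SE 0.03). ME1 had 125, 121, 125, 129 and 124 CPM in B, against 130, 138, 137, 133 and 139 CPM in A, also without overlap, and its log2 fold change was -0.12 (SE 0.03, adjusted p = 0.00959). GPX1 and ME1 were the only members at 10 CPM or more whose 5 B libraries all lay below the 5 A libraries (6.25%, against 14.9% of genes), and 0 members had them all above (14.3% of genes).

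In the thioredoxin system, 3 of 9 members fell and 0 rose, against 23.1% of genes at 10 CPM or more that fell and 20.5% that rose. PRDX4, the peroxiredoxin of the endoplasmic reticulum, had 106, 105, 102, 114 and 102 CPM in B, against 114, 115, 110, 124 and 121 CPM in A, a log2 fold change of -0.14 (SE 0.03, adjusted p = 0.00236). TXN had 603, 539, 541, 579 and 539 CPM in B, against 597, 620, 596, 619 and 631 CPM in A, at -0.13 (SE 0.03, adjusted p = 0.00822). In sg1 the B library was above the A library for TXN, unlike in the other 4 lines. PRDX1, a cytosolic peroxiredoxin, had 905, 825, 849, 898 and 829 CPM in B, against 905, 918, 901, 935 and 946 CPM in A, at -0.10 (SE 0.03, adjusted p = 0.0201). PRDX1 was lower in B in 5 of 5 lines, in sg1 by less than the rounding. TXNRD1, SRXN1, PRDX2, PRDX3, PRDX5 and PRDX6 ranged between -0.06 and 0.06 and did not pass.

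The members that rose were GCLC and OSGIN1. GCLC, the catalytic subunit of the ligase that limits glutathione synthesis, had 124, 117, 127, 132 and 125 CPM in B, against 115, 117, 115, 116 and 120 CPM in A. It was higher in B in 5 of 5 lines, in sg2 by less than the rounding, with a log2 fold change of 0.10 (SE 0.03, adjusted p = 0.0268). OSGIN1 had 7.47, 5.65, 7.94, 6.34 and 6.43 CPM in B, against 5.60, 6.11, 5.33, 4.86 and 5.68 CPM in A, at 0.29 (SE 0.09, adjusted p = 0.0311). Its B value was above its A value in each line except sg2. An overlapping gene, AC009119.2, which shares 9.39% of the 50-base stretches of OSGIN1, stood at 0.484 to 1.21 CPM. NFE2L2 had a log2 fold change of -0.03 and KEAP1 of -0.04 (SE 0.03 each), and GCLM, GSS, GSR, CAT, PGD, TKT, TALDO1 and ABCC1 lay between -0.08 and 0.05, none past the threshold. None of the 5 reductases passed either. NQO1 came nearest, at -0.17 (SE 0.06, adjusted p = 0.0517), with 485, 363, 388, 441 and 367 CPM in B, against 430, 461, 460, 456 and 477 CPM in A.

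**Figure D3:**
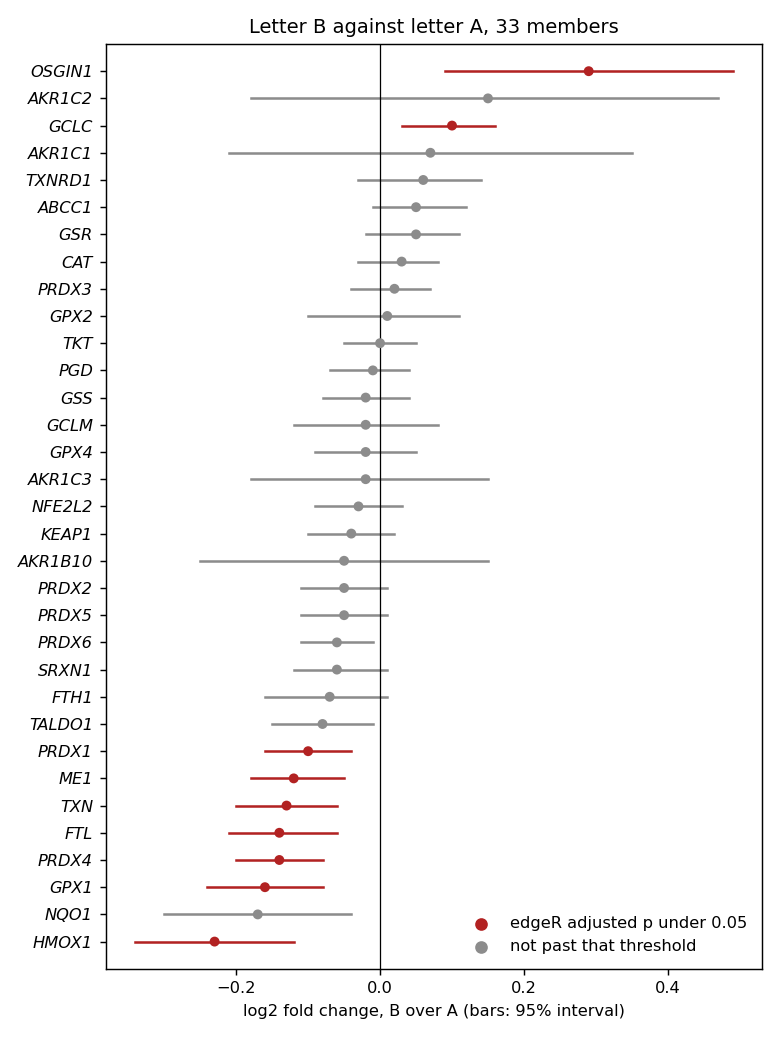
Log2 fold change of letter B over letter A (horizontal axis) for the 33 members, with 95% intervals as bars. The 9 members in red passed the test, from HMOX1 at -0.23 to OSGIN1 at 0.29, and the intervals of AKR1C1 and AKR1C2 are the widest among genes above 10 CPM.

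These counts depended on the line sg1. With either of its libraries left out, 13 members fell and 1 rose, while the share of all genes called was 29.0% without B and 28.7% without A. NQO1 then passed, with -0.25 in both cases, and so did FTH1, TALDO1, AKR1C3, AKR1B10 and SRXN1, all lower in B. Without either library of sg3 or of NTC2 neither GCLC nor OSGIN1 passed, and GCLC alone rose without either library of NTC1. Of the 10 epithelial markers, 3 rose in B (CDX2, VIL1 and KRT20), 4 fell (KRT8, KRT18, CDH17 and CDX1) and 3 did not pass (CDH1, EPCAM and LGALS4), with a median log2 fold change of -0.04. KRT8 and KRT18 had 2276 to 3014 and 1253 to 1508 CPM in B libraries, against 3153 to 3360 and 1699 to 1808 CPM in A libraries. CDX2 had 156 to 174 CPM in B and 146 to 150 CPM in A, and VIL1 had 280 to 305 CPM in B and 257 to 269 CPM in A. Markers of other cells summed to 37.3 to 47.2 CPM in B and 44.2 to 47.5 CPM in A. The part of either in the result was not tested.

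Of the same pathways, 69 other genes were found in the table. Their tested entries numbered 64, with GGT1 entering more than once. Of these, 26 were called between letters, 6 higher and 20 lower in B (40.6%), with a median of -0.06. Of all genes tested 29.6% were called. Among genes at 10 CPM or more, 24 of 56 entries of other pathway genes were called (42.9%), against 43.6% of all genes. Of these, 6 were higher and 18 lower, against 20.5% of all genes higher and 23.1% lower. Those with the smallest p included NFE2L1, the relative of NRF2 that controls proteasome genes, higher by 0.24 (SE 0.03, adjusted p = 8.32e-05), and UGDH, which makes UDP-glucuronic acid, higher by 0.19 (SE 0.04). AKR1B1 (0.14) and the mitochondrial NADPH enzyme IDH2 (0.12) rose too. SLC7A11, the cystine transporter that feeds glutathione synthesis, fell by 0.27 (SE 0.04, adjusted p = 0.000113) and the glutaredoxin GLRX fell by 0.34 (SE 0.05, adjusted p = 0.000308). The glutathione transferase GSTO1 (-0.22) and RPE of the pentose phosphate pathway (-0.19) fell as well.

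**Figure D4:**
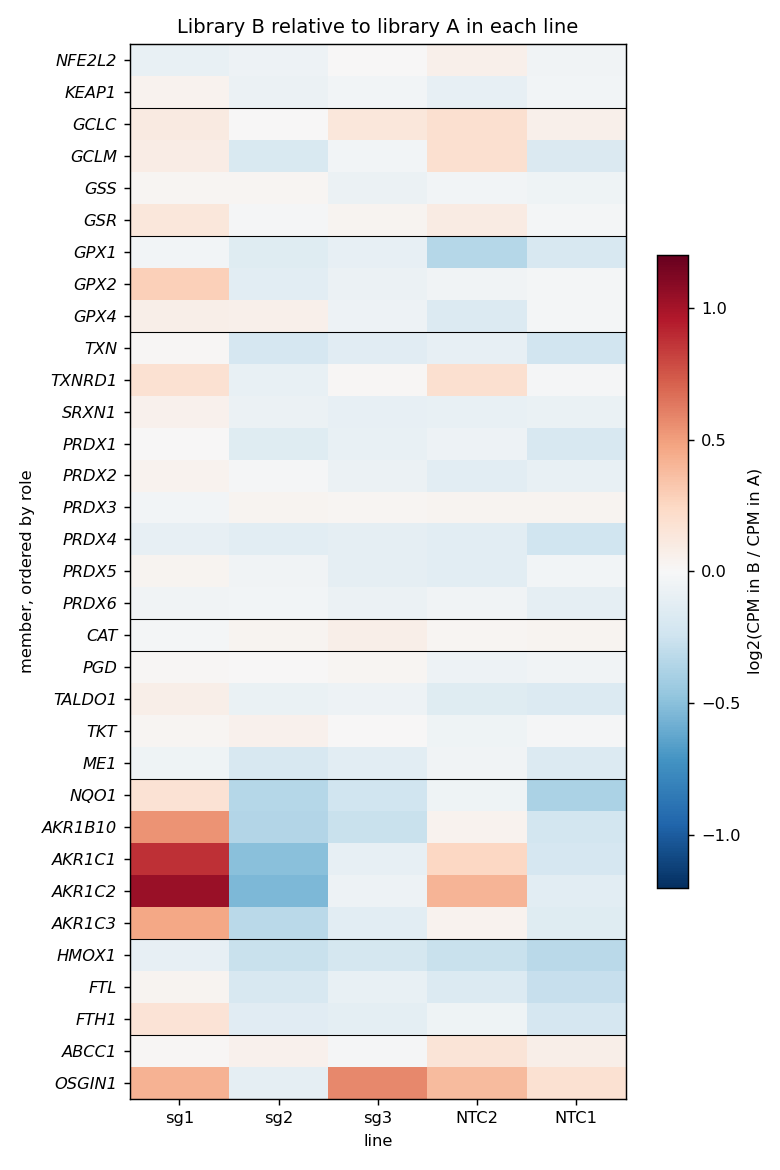
Log2 ratio of the B over the A library (colour, red higher in B, blue lower) for each member (rows, ordered by role, with lines between roles) in each line (columns). The AKR1C rows run from 1.04 in sg1 to -0.54 in sg2 for AKR1C2, while rows such as CAT are pale throughout.

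Repression of RNASE1 came with no called change in the set. In guide lines over NTC lines, tested on the 3 and 2 lines with A and B summed, 0 of 33 members passed edgeR's test. Of all 17335 genes 0.0231% passed (4 genes, RNASE1 among them, and 9 with the letter as a block). At an unadjusted p under 0.05 there was 1 of 33 members, against 1384 of 17335 genes. It was PRDX4, with a log2 fold change of -0.08 (SE 0.03, adjusted p = 0.602), and DESeq2 called 0 members. Fold changes lay between -0.10 and 0.12 on the log2 scale, with a median of -0.02 over the members and -0.00 over all genes. The 95% interval stayed within 1.25-fold either way for 31 of 33 members, all but AKR1C1 and AKR1C2, and within 1.5-fold for all 33, against 63.6% and 73.9% of all genes tested. Those shares include many genes with fewer counts than most members, and fewer counts widen an interval. They are therefore not matched to the members in abundance. NFE2L2 averaged 180 ± 5.46 CPM in the 6 guide libraries and 175 ± 4.48 CPM in the 4 NTC libraries (SD), a log2 fold change of 0.04 (SE 0.03, adjusted p = 0.778). HMOX1 averaged 14.0 ± 1.43 CPM and 13.1 ± 1.72 CPM in the same groups (0.10, SE 0.07), and AKR1C2 153 ± 57.4 CPM and 162 ± 22.0 CPM (-0.08, SE 0.13). No member at 10 CPM or more had all guide libraries above, or all below, all NTC libraries, which held for 0.588% and 0.357% of genes. Of 65 tested entries of other pathway genes, with GGT1 entering more than once, 0 were called and 5 had an unadjusted p under 0.05. The background for these 5 is the same 1384 of 17335 genes.

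The guide lines were also compared with the mean of the NTC lines separately, and since these comparisons share their NTC libraries they are given side by side. These fits had a term for the line and none for the letter, so differences between letters widen their standard errors and intervals. The fits among guide lines and between NTC lines below were made the same way. For sg1, sg2 and sg3, 0 of 33 members were called by edgeR and 0 had an unadjusted p under 0.05, and DESeq2 called 0. The background was 0.00609% of 16411 genes in each of the 3 comparisons, which is 1 gene, lower in the guide line each time. The 5 reductases were positive in sg1, from 0.07 for NQO1 to 0.28 for AKR1C2 (SE 0.25), and negative in sg2, from -0.08 for NQO1 to -0.43 for AKR1C2 (SE 0.26). In sg3 AKR1C2 was at -0.18 (SE 0.25) and AKR1B10 at 0.02 (SE 0.15). The values of sg1 rested on its B library: without it they were -0.33 for AKR1C2, -0.29 for AKR1C1, -0.10 for AKR1C3 and -0.05 for AKR1B10. AKR1B10 in sg2 was at -0.13, and at 0.03 without sg2 B. With no filter on low counts, the test called AKR1C2 (adjusted p = 2.86e-06) and AKR1C1 (adjusted p = 4.33e-05) lower in sg2, and AKR1C2 (adjusted p = 0.0440) higher in sg1. Each of these was called in only 1 of 16 alternatives. The fit without the filter also called more genes between the NTC lines than the fit with it. The intervals of AKR1C2 reached from 0.83-fold to 1.79-fold in sg1 and from 0.50-fold to 1.11-fold in sg2. The intervals of NFE2L2, KEAP1, GCLC, GCLM, GSS and GSR stayed within 1.25-fold in each of the 3 guide lines.

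**Figure D5:**
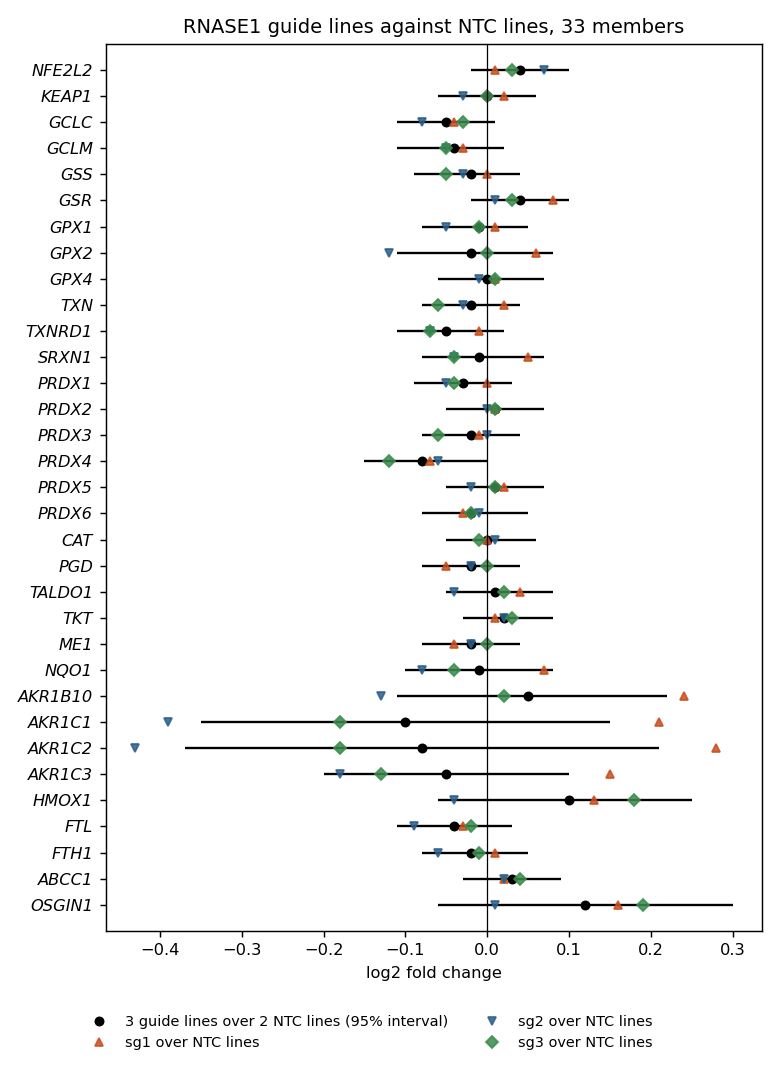
Log2 fold change (horizontal axis) of the guide lines over the NTC lines (black, with 95% intervals) and of sg1, sg2 and sg3 each over the NTC lines (coloured symbols, no intervals) for the 33 members, ordered by role. In the AKR1C genes and AKR1B10, sg1 lies at or above 0.15 and sg2 at or below -0.13; OSGIN1 (0.16 in sg1, 0.19 in sg3) and HMOX1 (0.13 in sg1, 0.18 in sg3) also lie away from 0.

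The test for differences between sg1, sg2 and sg3 called 0 of 33 members, and 0 had an unadjusted p under 0.05 (background 0.00%, 0 of 16411 genes). Guide and NTC lines were also compared in their difference between letters. There 0 members were called (background 0.00%), and 3 had an unadjusted p under 0.05: GPX1 at 0.17 (SE 0.06, adjusted p = 0.867), FTL at 0.14 (SE 0.06) and TALDO1 at 0.14 (SE 0.06). For GPX1 the B libraries of the guide lines were 250, 229 and 241 CPM and their A libraries 255, 255 and 258 CPM, against 227 and 229 CPM in B and 288 and 261 CPM in A of NTC2 and NTC1.

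NTC2 and NTC1 differ in their non-targeting guide and show how far control lines lie apart. In NTC2 over NTC1, 0 of 33 members were called (background 0.00%) and 0 had an unadjusted p under 0.05, and DESeq2 called 0. The log2 fold change was positive for 27 members and negative for 6, with a median of 0.05 over the members and -0.00 over all genes, between -0.11 for OSGIN1 and 0.15 for HMOX1. GPX4 had 328 and 366 CPM in NTC2 B and A, against 326 and 331 CPM in NTC1 B and A, at 0.08 (SE 0.07). AKR1C2 had 193 and 146 CPM in NTC2 B and A, against 148 and 162 CPM in NTC1 B and A, at 0.13 (SE 0.29), so B and A of NTC2 differed more than the averages of the NTC lines did.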

How the data were processed

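RNA was extracted on columns, captured with oligo(dT) beads and copied with random primers, per the labels' protocols. The described steps keep no strand information, so overlapping genes on opposite strands share reads. The authors deposited a table of expected counts per gene as estimated by RSEM, per the file header and the table's name; 7.12% of the values were not whole. The submitters' processing notes list hg38, CASAVA 1.8.2, TopHat2 2.0.8 and FastQC 0.11.2 without their roles, and the annotation release is not given in the sources used here.

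Expected counts were rounded and tested with edgeR 4.0.16 (R 4.3.3; TMM, filterByExpr, glmQLFit, glmQLFTest, two-sided), with Benjamini-Hochberg adjustment over all tested genes and a threshold of 0.05. The letter comparison and its difference between arms were fitted with terms for line and letter. The fits of each guide line, among guide lines and between NTC lines had a term for the line and none for the letter. All of these used all 10 libraries, and the arms were compared on A and B summed per line. DESeq2 1.42.0 was an alternative. CPM is scaled by TMM. Scripts were tested on simulated data. Same-lettered libraries of different lines deviated together (r between 0.486 and 0.781 over the 9527 genes at 10 CPM or more, and between 0.189 and 0.361 over all 16411 tested; 10 of 10 pairs over 0.1 in both), so the letter pairs the libraries. Positions come from GENCODE 29, which matched 58597 identifiers, and promoters from RefSeq (GRCh38.p14). All members were named; up to 4 other pathway genes per direction were named by smallest p, except where stated. The members and lists were chosen with earlier results of these data known.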

Additional observations from a re-analysis of the deposited data

Results flagged for a closer look

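In each of the guide and NTC groups the highest and the lowest library of every member were compared with the rest of their group, and a library is listed where its gap to the nearest other exceeded Dixon's 95% critical value. This was done for 66 groups, and chance flags about 1 in 20 groups; 4 libraries were found. The B library of sg1 stood above the other guide libraries for AKR1C1 at 294 CPM (the others 124 to 178 CPM), for AKR1C2 at 265 CPM (98.0 to 146 CPM) and for GSR, the glutathione reductase, at 290 CPM (262 to 271 CPM). Among the NTC libraries, NTC2 A stood above the others for GPX4 at 366 CPM (326 to 331 CPM). The sum of the AKR1C genes followed the same order, with 762 CPM in sg1 B.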

How the results depend on the processing

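Of 311 values of named genes recomputed under alternatives, 275 kept their direction and side of the threshold, 20 lost the call, 11 gained it and 5 changed sign. Between letters, 2 members were called higher and DESeq2 called 1 of them higher. Leaving out each library in turn gave 0 to 2 higher and 5 to 13 lower, against 7. With a term for each line, leaving out either library of a line takes that line out of the letter comparison. The 10 fits without a library therefore nearly repeat each other in pairs, by line, and are not 10 separate checks. OSGIN1 was not called by DESeq2 (adjusted p = 0.0607) or in 8 of the 10 fits without a library, PRDX1 not without a library of sg2, sg3 or NTC1, GCLC not without a library of sg3 or NTC2, and ME1 not without sg3 B (adjusted p = 0.0503). NQO1 passed with RLE size factors (adjusted p = 0.0491), a GC offset (0.0464), a mean of at least 5 CPM (0.0281), no filter, or without a library of sg1 or NTC2. With no filter on low counts, 1 member was higher in sg1 and 2 were lower in sg2, against 0 each. Leaving out each library moved the log2 fold change in sg1 from -0.29 to 0.59 for AKR1C1, -0.33 to 0.71 for AKR1C2, -0.10 to 0.36 for AKR1C3 and -0.05 to 0.49 for AKR1B10, and that of AKR1B10 in sg2 from -0.32 to 0.03. With the replicate block by letter, 0 members were called between guide lines and NTC lines, in any guide line or between the NTC lines, as without it. Over all genes, the 4 calls between guide and NTC lines became 238 with no filter, 55 with DESeq2, 9 with the replicate block, 11 in A libraries alone, 7 at a mean of 5 CPM, and 1 to 12 without a library. With no filter the calls were 69 in sg1, 95 in sg2, 86 in sg3 and 57 between NTC lines, against 1, 1, 1 and 0, while DESeq2 gave 6, 4, 4 and 2. The cause of these shifts was not tested. OSGIN1 and HMOX1 had the lowest CPM of the members and so the fewest counts behind their values, and 1 library per line and letter limits every statement on a line's own difference between letters.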
